A study of Mus musculus with 28 samples.

Results

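Ribosome-bound RNA of parvalbumin (PV) cells was set against that of CaMK2a cells of hippocampal CA1 in mice that had received PBS only. The comparison holds 7 of the 28 libraries of the series, chosen by their labels: 4 anti-HA immunoprecipitates (IP) of the PV line and 3 of the CaMK2a line. The mice were C57BL/6, 3 to 4 weeks old, and carried 1 LSL-Rpl22-HA allele, in which Cre removes a stop so that the ribosomal protein Rpl22 bears an HA tag. In the PV line (PV-Cre/+) Cre is expressed from the PV gene, and in the CaMK2a line under CaMK2a control. Per the labels, PBS was given 6 hours before collection, whereas the column headings of the deposited tables read 0 hours, and which is right is not known. For a PV library 9 to 10 mice were pooled and 2.5 ng of RNA used, and for a CaMK2a library 4 mice and 20 ng. The lysates before IP (input) of the same lines and treatment, 4 PV and 3 CaMK2a libraries, were compared in the same way as a check on the line and the RNA amount. The libraries of a group are numbered as biological replicates, and p-values measure the spread between these pools. Cre line, pool size, RNA amount and the cells that carry the tag change together between the groups, and their parts cannot be told apart.

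PV cells are fast-spiking GABAergic interneurons that innervate the soma and axon initial segment of pyramidal cells. They are known for the calcium buffer parvalbumin, for Kv3 potassium channels that allow rapid firing, for synchronous transmitter release and for the perineuronal nets around them. CaMK2a-Cre acts in forebrain excitatory neurons, which in CA1 are glutamatergic pyramidal cells. In the RiboTag method RNA is recovered with the tagged ribosomes, so a transcript level reflects its share of the RNA pulled down, with any RNA carried over from untagged cells. In such pooled tissue, fewer cells of a type and less RNA per cell cannot be told apart.

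The promoters of 4 genes are shown. Pvalb is the gene that drives Cre in the PV line. Gad1 and Syt2 were far higher in the PV IP, and Slc17a7 was lower. Each sequence is the 250 bases before the RefSeq start in GRCm38.p6, read 5′ to 3′ on the strand of the gene, and lies at chr15:78206401-78206650 (minus strand), chr2:70561879-70562128 (plus strand), chr1:134646362-134646611 (plus strand) and chr7:45163671-45163920 (plus strand). The RefSeq start of Gad1 is 361 bases from the start listed with the counts, and its window lies within the listed gene. Pvalb and Syt2 have 2 RefSeq starts each, and the one nearest the listed start was used. Capitals mark matches on either strand to any of 3 motifs, none of which overlapped another in these windows. The first, CAGATG, is an E-box. The core of the cAMP response element is TGACG. The letters of a TATA box were taken as TATAAA.
Pvalb: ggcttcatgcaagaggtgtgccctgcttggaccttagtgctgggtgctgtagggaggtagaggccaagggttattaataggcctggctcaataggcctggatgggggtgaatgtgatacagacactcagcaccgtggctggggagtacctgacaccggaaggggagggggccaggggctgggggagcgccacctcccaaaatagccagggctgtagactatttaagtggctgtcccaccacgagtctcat
Gad1: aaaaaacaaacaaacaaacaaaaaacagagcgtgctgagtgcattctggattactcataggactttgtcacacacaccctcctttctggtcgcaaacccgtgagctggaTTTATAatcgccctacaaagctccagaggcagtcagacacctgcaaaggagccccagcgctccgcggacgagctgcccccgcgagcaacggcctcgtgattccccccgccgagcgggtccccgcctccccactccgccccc
Syt2: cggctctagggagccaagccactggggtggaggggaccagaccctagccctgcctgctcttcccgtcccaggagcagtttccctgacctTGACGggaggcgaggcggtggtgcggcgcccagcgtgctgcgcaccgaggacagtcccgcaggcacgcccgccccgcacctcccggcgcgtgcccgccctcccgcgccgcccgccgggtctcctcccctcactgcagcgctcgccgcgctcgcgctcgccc
Slc17a7: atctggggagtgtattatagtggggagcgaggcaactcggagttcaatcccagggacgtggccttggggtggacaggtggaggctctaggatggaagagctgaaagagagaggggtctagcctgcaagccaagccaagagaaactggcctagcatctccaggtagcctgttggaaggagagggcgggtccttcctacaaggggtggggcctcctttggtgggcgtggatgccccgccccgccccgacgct
Gad1 held a TATA box match on the reverse strand and Syt2 a match to the cAMP element core, and the Pvalb and Slc17a7 windows held none of the 3. Over all 32851 RefSeq promoters of that length, the E-box letters were in 14.4%, the cAMP element core in 17.8% and the TATA box letters in 12.4%. A match is a description of letters and says nothing of a factor.

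Reads counted in coding genes numbered 6.85 to 15.3 M in the 14 PBS libraries. Levels below are CPM (counts scaled to equal library size) after TMM scaling, done separately for IP and for input, so IP levels are not set against input levels. The spread between PV pools was wider than between CaMK2a pools, with a biological coefficient of variation of 33.5% in the PV IP and 8.7% in the CaMK2a IP, and of 23.9% in the PV input and 7.9% in the CaMK2a input. PV replicate 4 stood apart by mitochondrial share in IP and input, and by correlation over genes in the input only. It correlated with the other PV inputs at 0.947 to 0.953, where the others reached 0.973 to 0.975. In the IP its correlations were 0.926 to 0.94, within the 0.924 to 0.94 of the other PV libraries. The mitochondrial share of replicate 4 was 0.795% in the IP and 4.10% in the input, where the other PV libraries held 1.90 to 2.01% and 7.99 to 9.67%. CaMK2a libraries held 0.549 to 0.752% in the IP and 6.57 to 7.35% in the input. Rpl22, the tagged gene, was not analysed here, so the tag could not be checked by its own count.

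Of 11131 genes tested, 2003 (18%) were higher and 1587 (14.3%) lower in the PV IP than in the CaMK2a IP (edgeR quasi-likelihood test, Benjamini-Hochberg adjusted p under 0.05). Large differences ran mostly upward: 1372 genes (12.3%) were at least 2-fold higher and 664 (5.97%) at least 2-fold lower. The median log2 ratio over all genes was 0.06, and the groups did not overlap for 42.8% of the genes tested. Leaving out CaMK2a IP replicate 1 left 1260 genes higher and 921 lower, and leaving out CaMK2a IP replicate 3 left 1219 and 963. In the inputs, 1299 of 11353 genes (11.4%) were higher and 726 (6.39%) lower in the PV line, but only 166 (1.46%) and 103 (0.907%) by 2-fold or more. Those input calls rest on all 7 libraries together. With any single library other than PV input replicate 4 left out, 2 or fewer genes passed in each direction, and without PV input replicate 4 the counts were 3002 and 2979. The input is therefore given below as a ratio with its SE for many of the named genes, and its calls are not relied on. Whether the IP ratio exceeded the input ratio was tested as a difference of the log2 ratios over the 14 libraries, where 1559 of 11760 genes (13.3%) had a positive and 1677 (14.3%) a negative difference. By 2-fold or more there were 1245 (10.6%) positive and 951 (8.09%) negative.

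**Figure D1:**
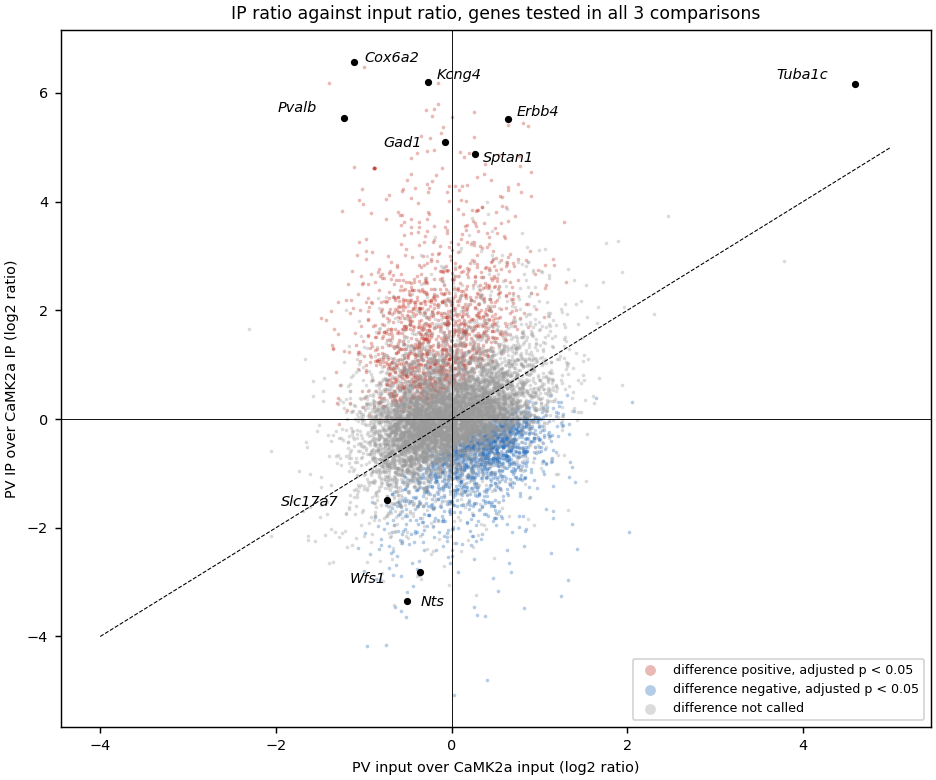
Each point is a gene tested in all 3 comparisons, with the PV over CaMK2a log2 ratio of the inputs on the x axis and of the IPs on the y axis, and the dashed line marks equal ratios. Pvalb, Gad1, Kcng4 and Cox6a2 lie high at input ratios of 0 or below, while Tuba1c is high on both axes. Red points had a positive and blue points a negative difference of the ratios (edgeR, adjusted p under 0.05), and grey points did not pass.

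Genes that make, load and take up GABA were among those higher in the PV IP. Of 8 such genes tested, 6 were higher and none lower, where 18% of all genes were higher, and their median log2 ratio was 2.93. This list and those below were chosen with earlier results of these data known, so their counts are descriptions and not independent evidence. Gad1, which makes most GABA in the cell body, held 866, 937, 880 and 883 CPM in the PV IP, against 24.1, 30.7 and 23.5 CPM in the CaMK2a IP. The 4 PV libraries lay close together and far above all CaMK2a libraries, with a log2 ratio of 5.10 ± 0.16 (SE; adjusted p = 8.7e-09, edgeR quasi-likelihood test). In the inputs Gad1 was nearly equal, with 152 to 166 CPM in the PV line and 162 to 172 CPM in the CaMK2a line. Slc32a1, the vesicular GABA transporter, held 159, 179, 188 and 165 CPM in the PV IP, against 3.44, 5.51 and 3.90 CPM in the CaMK2a IP. The log2 ratio of Slc32a1 was 5.37 ± 0.21 in the IP and -0.09 ± 0.15 in the input. An opposite-strand gene overlaps exons of Slc32a1.

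Gad2, the synaptic isoform of the GABA-making enzyme, held 831, 842, 834 and 448 CPM in the PV IP, against 35.9, 62.4 and 31.5 CPM in the CaMK2a IP. PV replicate 4 was the low library, still above every CaMK2a library. The Gad2 input also leaned to the PV line (log2 ratio 0.91 ± 0.14), with a difference of IP and input ratios of 3.14 ± 0.33 (adjusted p = 2.1e-06, edgeR). The GABA-degrading enzymes Abat (2.23) and Aldh5a1 (1.95) were higher in the PV IP by log2 ratio. The transporters Slc6a13 (0.42) and Slc6a11 (0.35), which are known from glia and meninges, did not pass.

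**Figure D2:**
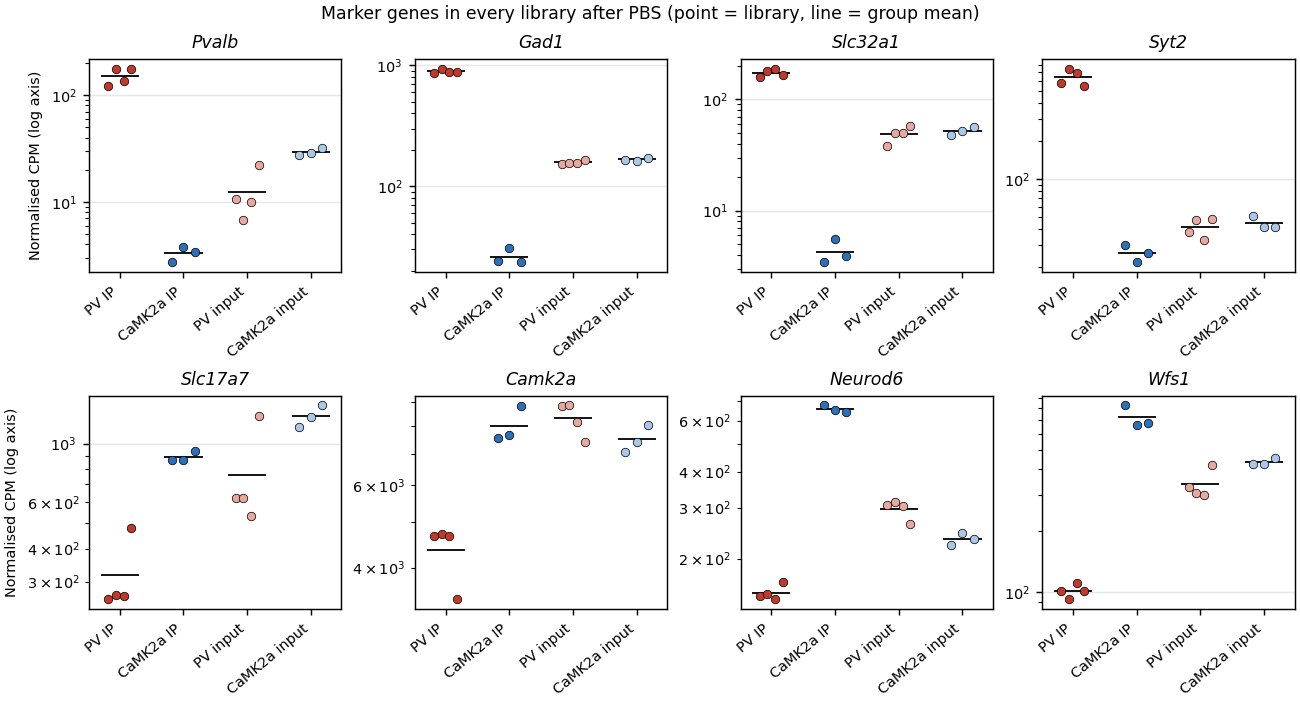
Normalised CPM of 8 marker genes on log axes in each PBS library, with points for libraries and lines for group means; IP and input were scaled separately. Pvalb, Gad1, Slc32a1 and Syt2 are higher in every PV IP library than in any CaMK2a IP library, and Slc17a7, Camk2a, Neurod6 and Wfs1 are lower in every one; PV replicate 4 lies apart for Slc17a7 and Camk2a.

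All 13 PV cell markers tested were higher in the PV IP, where 18% of all genes were, with a median log2 ratio of 3.00. All 13 had a positive difference of IP and input ratios, beside 13.3% of all genes. This list was chosen with earlier results of these data known, so neither count is an independent check. Pvalb itself held 122, 176, 136 and 174 CPM in the PV IP, against 2.72, 3.81 and 3.42 CPM in the CaMK2a IP. That is a log2 ratio of 5.54 ± 0.23 (adjusted p = 4.2e-08, edgeR). The inputs went the other way: Pvalb held 10.7, 6.76, 10.0 and 22 CPM in the PV line, against 27.3, 28.5 and 32.2 CPM in the CaMK2a line, a log2 ratio of -1.23 ± 0.32. The Pvalb gene is the one that carries Cre in the PV line, and it lies at chr15:78191117-78206351 (minus strand, mm10). The difference of the ratios was 6.71 ± 0.43 (adjusted p = 8.6e-09).

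Cox6a2, the muscle-type subunit of cytochrome c oxidase and the gene with the largest rise among those with a mean log2 CPM of at least 3, held 27.2, 29.0, 27.2 and 47.9 CPM in the PV IP, against 0.324, 0.656 and 0.0976 CPM in the CaMK2a IP. The CaMK2a values rest on 11 counts in all, so the fitted log2 ratio of 6.57 ± 0.48 is a rough size. The Cox6a2 input ratio was -1.12 ± 0.36. Btbd11, an ankyrin repeat and BTB domain protein, held 186 to 245 CPM in the PV IP and 2.73 to 5.91 CPM in the CaMK2a IP. Erbb4, the neuregulin receptor of interneurons, held 695, 939, 769 and 597 CPM in the PV IP, against 15.8, 22.3 and 11.4 CPM in the CaMK2a IP. Its input was also higher in the PV line (log2 ratio 0.64 ± 0.11), and the difference of the ratios was 4.82 ± 0.27 (adjusted p = 1.4e-09). Further down the list came the tachykinin precursor Tac1 (log2 ratio 4.82), the heavy neurofilament Nefh (2.79) and the potassium channel Kcns3 (1.99), and the smallest were Lgi2 (1.68) and Slit2 (0.86).

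Transcription factors of the interneuron lineage followed. Of 12 tested, 9 were higher and 1 lower, beside 18% and 14.3% of all genes, with a median log2 ratio of 4.17. Their summed level overlapped between the groups, at 2867, 2745, 2827 and 1883 CPM in the PV IP and 2094 to 2130 CPM in the CaMK2a IP. In the inputs the sums were 1492 to 2131 CPM in the PV line and 1502 to 1519 CPM in the CaMK2a line. Dlx5 and Dlx6, neighbouring distal-less genes of the same lineage, had log2 ratios of 4.81 ± 0.44 and 5.18 ± 0.89. Dlx6 varied widely among PV libraries, at 11.6, 22.8, 2.86 and 6.52 CPM, with 10 counts in all in the CaMK2a IP, and an antisense transcript overlaps it. Sox6 (3.84) and Satb1 (1.17), both needed by PV and somatostatin cells, were higher too. The lower member was Nfix (-1.31).

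Markers of other interneuron classes were mixed. Of 15 tested, 8 were higher, beside 18% of all genes, and 2 lower, near the 14.3% of all genes. The median log2 ratio was 1.30. Crhbp, the corticotropin-releasing hormone binding protein, held 126, 140, 130 and 125 CPM in the PV IP, against 3.18, 4.20 and 3.61 CPM in the CaMK2a IP (log2 ratio 5.17 ± 0.19). Sst, the somatostatin precursor, held 265, 225, 218 and 250 CPM in the PV IP, against 78.0, 114 and 101 CPM in the CaMK2a IP. Every PV library was above every CaMK2a library, at a log2 ratio of 1.30 ± 0.16, far short of that of Gad1. The Sst input was lower in the PV line (-0.55 ± 0.11). Npy had a log2 ratio of 3.00 ± 0.44, Vip of 2.40 and Reln of 1.82. The peptide genes Cck and Penk ran the other way: Cck held 358 to 436 CPM in the PV IP and 2074 to 2500 CPM in the CaMK2a IP (log2 ratio -2.52 ± 0.13), and Penk 6.88 to 11.0 and 47.4 to 56.4 CPM (-2.64 ± 0.22). Both are also made by excitatory neurons, and their input ratios were -0.62 ± 0.11 (Cck) and -0.45 ± 0.17 (Penk).

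Several of the largest rises were outside these lists. Kcng4, a modifier subunit of Kv2 potassium channels, held 161, 135, 121 and 171 CPM in the PV IP, against 1.10, 3.28 and 2.05 CPM in the CaMK2a IP, a log2 ratio of 6.20 ± 0.32 beside an input ratio of -0.27 ± 0.19. Akr1c18, a hydroxysteroid dehydrogenase that inactivates progesterone, held 51.5 to 85.2 CPM in the PV IP and 0.131 to 2.25 CPM in the CaMK2a IP (5.67 ± 0.46). Secreted proteins were among them. Pthlh, a parathyroid hormone-like peptide, had a log2 ratio of 5.79 ± 0.51, and the tolloid-like protease Tll1 of 5.44 ± 0.43, with 10 CaMK2a counts in all for Pthlh. Their input ratios were -0.15 ± 0.46 (Pthlh) and 0.81 ± 0.35 (Tll1). Rxfp3, the relaxin-3 receptor, held 19.4, 55.6, 15.2 and 21.1 CPM in the PV IP, with PV replicate 2 the high library, against 0.389, 0.394 and 0.878 CPM in the CaMK2a IP. Spsb4, a SOCS box protein, had a log2 ratio of 5.55 ± 0.72 with 12 CaMK2a counts in all, and its exons overlap a gene on the other strand, as do those of Cox6a2.

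Tuba1c, an alpha-tubulin, differed from the genes above in its input. It held 30.4, 31.2, 26.6 and 44.0 CPM in the PV IP, against 0.454, 0.525 and 0.390 CPM in the CaMK2a IP, a log2 ratio of 6.16 ± 0.36. In the inputs it held 36.3, 36.0, 35.4 and 58.6 CPM in the PV line, against 0.979, 2.71 and 1.42 CPM in the CaMK2a line (4.59 ± 0.35). The lines therefore differed in the lysate as well, and the difference of the ratios was 1.52 ± 0.53 (adjusted p = 0.04, edgeR). Tuba1c lies at chr15:99029891-99038105 (plus strand, mm10), on the chromosome of Pvalb, and alpha-tubulin genes are so alike that reads may be split among them. Akap9, a centrosomal and Golgi anchor of protein kinase A, behaved likewise, with 811, 889, 838 and 336 CPM in the PV IP, against 53.8, 56.1 and 53.1 CPM in the CaMK2a IP, and an input ratio of 2.46 ± 0.49. Its difference did not pass (1.21 ± 0.58, adjusted p = 0.13, edgeR). Without PV replicate 4 in IP and input, left out after the data were seen, it passed (1.16 ± 0.17, adjusted p = 6.2e-05, edgeR). The SE shrank and the difference did not grow.

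Excitatory markers were lower in the PV IP but far from absent. Of 20 CA1 pyramidal and forebrain excitatory markers tested, 16 were lower and none higher, where 14.3% of all genes were lower, and the median log2 ratio was -1.64. Their summed level was 5655 to 6595 CPM in the PV IP and 14160 to 15760 CPM in the CaMK2a IP. Slc17a7, the vesicular glutamate transporter of these cells, held 258, 266, 264 and 478 CPM in the PV IP, against 870, 865 and 937 CPM in the CaMK2a IP (log2 ratio -1.49 ± 0.21, adjusted p = 0.00018, edgeR). The inputs held 621, 623, 532 and 1267 CPM in the PV line, against 1160, 1260 and 1395 CPM in the CaMK2a line (-0.74 ± 0.26). The difference of the Slc17a7 ratios did not pass (-0.80 ± 0.36, adjusted p = 0.11, edgeR). It passed at -0.67 ± 0.11 (adjusted p = 0.00015, edgeR) without PV replicate 4, the high library in IP and input. That library was left out after the data were seen, and the difference became smaller with a smaller SE. Camk2a held 4667, 4714, 4676 and 3431 CPM in the PV IP, against 7573, 7672 and 8857 CPM in the CaMK2a IP. Its log2 ratio of -0.88 ± 0.14 was among the smallest falls of the list.

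The larger falls of the list were in a CA1 marker and in transcription factors. Wfs1, an endoplasmic reticulum protein that marks CA1 pyramidal cells, held 102, 92.8, 111 and 102 CPM in the PV IP, against 825, 660 and 673 CPM in the CaMK2a IP (log2 ratio -2.82 ± 0.13; input -0.37 ± 0.13). Pou3f1, a POU-domain factor of CA1, held 15.7, 17.6, 11.0 and 16.8 CPM in the PV IP, against 127, 105 and 121 CPM in the CaMK2a IP (-2.94 ± 0.19). The Pou3f1 input ratio leaned the same way (-0.81 ± 0.17). Neurod6, a bHLH factor of excitatory neurons, held 145 to 166 CPM in the PV IP and 640 to 678 CPM in the CaMK2a IP. Its log2 ratio was -2.11 ± 0.12 in the IP and 0.35 ± 0.10 in the input, a difference of -2.51 ± 0.15 (adjusted p = 2.8e-09, edgeR). Nrgn, a calmodulin-binding protein of dendrites, had -2.33 ± 0.27. Rprm (0.08), Neurod1 (0.07), Cabp7 (-0.69) and Emx1 (-1.65) did not pass.

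The largest fall among genes with a mean log2 CPM of at least 3 was Nts, the neurotensin precursor, at 1.02, 1.32, 1.77 and 2.90 CPM in the PV IP, against 17.9, 16.3 and 19.8 CPM in the CaMK2a IP (log2 ratio -3.35 ± 0.39; input -0.50 ± 0.24). Cd34, a sialomucin, had -2.88 ± 0.27 (input -0.37 ± 0.23) and the Ras-like Rasd1 -2.94 ± 0.41 (input -0.86 ± 0.31). The BMP antagonist Grem1 had -2.81 ± 0.42 (input 0.08 ± 0.32) and the ligand Wnt2 -2.76 ± 0.33 (input -0.4 ± 0.38). The sulfotransferase Chst8 had -2.80 ± 0.55 (input -1.0 ± 0.24). Chst8 was uneven in the PV IP, at 2.99, 3.19, 1.26 and 11.9 CPM, with PV replicate 4 high.

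Of 10 CA2 and CA3 markers, 2 were higher and 1 lower, both near the shares of all genes (18% and 14.3%). Of 9 dentate granule cell markers, 4 were higher and 1 lower. Slc17a8, the vesicular glutamate transporter that some interneurons also carry, was higher, at 5.87 to 17.2 CPM in the PV IP and 0.583 to 1.05 CPM in the CaMK2a IP (log2 ratio 3.61 ± 0.56). Rgs14, a CA2 signalling protein, was lower (-1.44 ± 0.28), as it was in the input (-1.08 ± 0.22). Calb1, the calcium buffer calbindin of granule and CA1 cells, held 34.5 to 45.6 CPM in the PV IP and 87.8 to 93.1 CPM in the CaMK2a IP (-1.25 ± 0.16), with an input ratio of 0.53 ± 0.12. Dsp, the desmosomal protein desmoplakin that marks granule cells, held 91.7, 85.9, 121 and 29.99 CPM in the PV IP, against 11.4, 18.8 and 16.4 CPM in the CaMK2a IP. It was higher in the IP (2.41 ± 0.40) and the input ratio leaned the same way (1.06 ± 0.17). The count of CA2 and CA3 markers higher was 1 without any single CaMK2a IP library, or without PV IP replicate 1 or 3, and that of dentate markers lower was 2 without PV IP replicate 3 or 4.

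Calcium and calmodulin signalling genes were lower apart from a few. Of 32 tested, 4 were higher and 20 lower, beside 18% and 14.3% of all genes, with a median log2 ratio of -0.82. Of the 32, 22 had a negative difference of IP and input ratios, beside 14.3% of all genes. Calmodulin transcripts (Calm2 -1.67, Calm3 -0.67), calcineurin subunits (Ppp3ca -1.16, Ppp3cb -0.71, Ppp3r1 -1.31) and CaM kinases (Camk2b -1.68, Camk4 -1.26) all fell by log2 ratio. Itpka, an inositol trisphosphate kinase of dendritic spines, held 44.4 to 60.9 CPM in the PV IP and 227 to 239 CPM in the CaMK2a IP (-2.09 ± 0.14). Besides Pvalb, Rcan2, an inhibitor of calcineurin, was higher, at 576, 709, 588 and 575 CPM in the PV IP, against 39.4, 47.8 and 41.7 CPM in the CaMK2a IP. Its log2 ratio was 3.83 ± 0.16 in the IP and 0.28 ± 0.10 in the input. Camk2n2 (1.29), an inhibitor of CaM kinase II, and the sensor Ncald (0.49) were the other members higher.

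**Figure D3:**
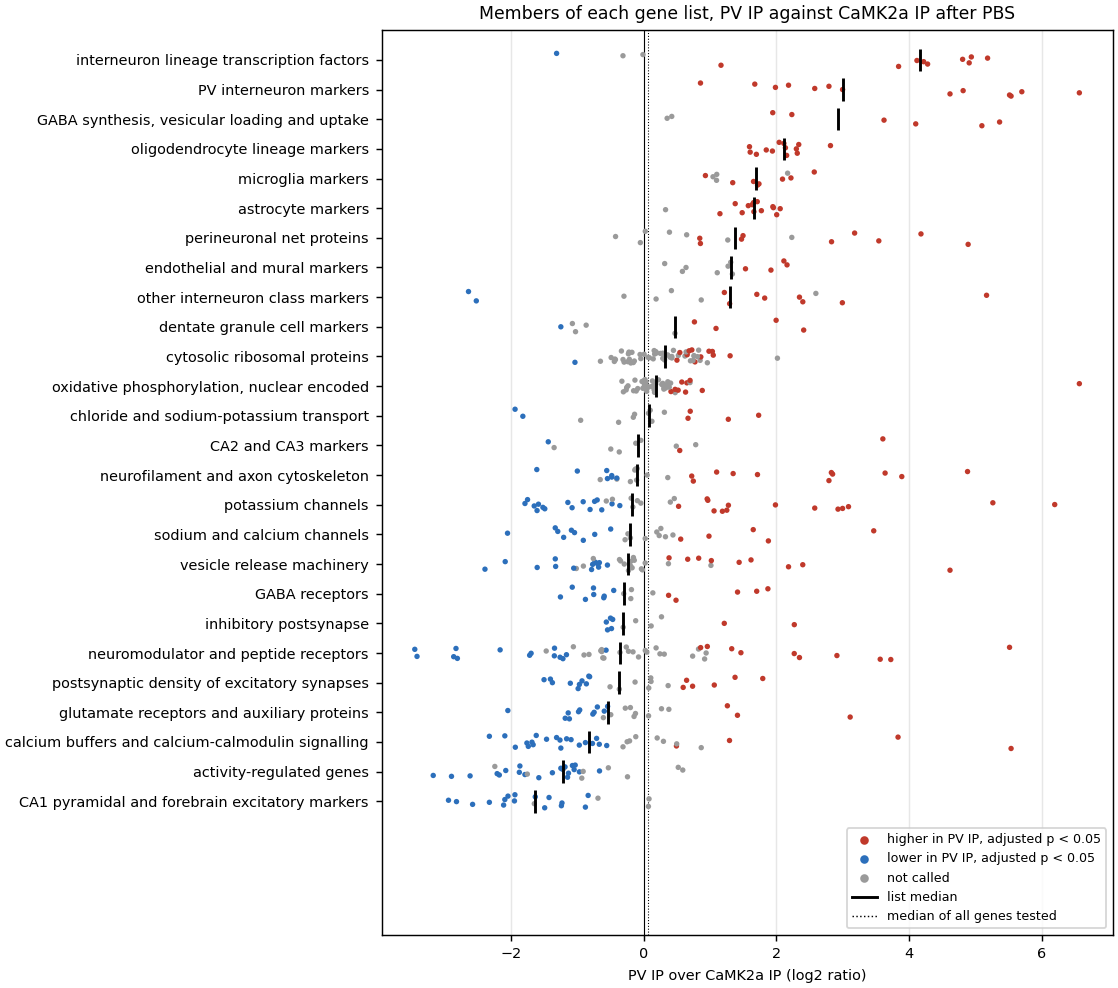
PV IP over CaMK2a IP log2 ratio of each tested member of 26 gene lists, coloured by the edgeR call, with list medians as bars and the median of all genes as a dotted line. Interneuron, PV and GABA lists and the glial lists lie to the right, CA1, activity-regulated and calcium lists to the left, and channel, receptor and release lists spread to both sides.

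Potassium channel genes differed in both directions. Of 38 tested, 14 were higher and 16 lower, beside 18% and 14.3% of all genes, with a median log2 ratio of -0.18. Among the rises were Kv3 and Kv1 channels of fast-spiking cells. Kcnc1 (Kv3.1) held 866, 1088, 931 and 910 CPM in the PV IP, against 111, 124 and 122 CPM in the CaMK2a IP (log2 ratio 3.00 ± 0.14; input -0.02 ± 0.10), Kcnc2 (Kv3.2) had 2.58, and Kcna1 and Kcna2 had 1.19 and 1.06. Auxiliary subunits rose as well. Kcnmb2, a beta subunit of BK channels, held 14.5 to 25.1 CPM in the PV IP and 0.195 to 1.05 CPM in the CaMK2a IP (5.26 ± 0.50, with 17 CaMK2a counts in all), and Kcnip1, a Kv4 channel interactor, had 3.09 ± 0.19. Among the falls were the Kv4 subunit Kcnd2 (-1.52), the M-current subunits Kcnq3 (-1.59) and Kcnq5 (-0.48), the A-type subunit Kcna4 (-1.61), Kcnc4 (-1.08), the leak channel Kcnk9 (-1.75) and Kcnh3 (-1.79).

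Of 23 sodium and calcium channel genes, 5 were higher, near the 18% of all genes, and 9 lower, beside 14.3% of all genes. The count higher was 8 without PV IP replicate 4. Scn1a (Nav1.1), the sodium channel subunit that interneurons depend on, held 513, 557, 525 and 429 CPM in the PV IP, against 148, 134 and 130 CPM in the CaMK2a IP. Its log2 ratio was 1.88 ± 0.14 in the IP and 0.71 ± 0.11 in the input, with a difference of 1.12 ± 0.17 (adjusted p = 1e-04, edgeR). Scn2a1 (Nav1.2) had -0.91 and the auxiliary Scn3b -1.21, both lower. Cacna2d2 and Cacna2d1, alternative alpha2delta subunits of calcium channels, ran in opposite directions: Cacna2d2 held 124 to 235 CPM in the PV IP and 12.1 to 19.9 CPM in the CaMK2a IP (3.47 ± 0.26), and Cacna2d1 had -1.29. Cacna1a (P/Q-type, 0.98) was higher and Cacna1e (R-type, -0.74) lower. The beta subunit Cacnb1 was lower (-2.05 ± 0.18) and Cacng2, the AMPA receptor partner stargazin, higher (1.65 ± 0.14). Reads of Cacna2d2, Cacnb1 and Cacng2 share exonic bases with opposite-strand genes.

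**Figure D4:**
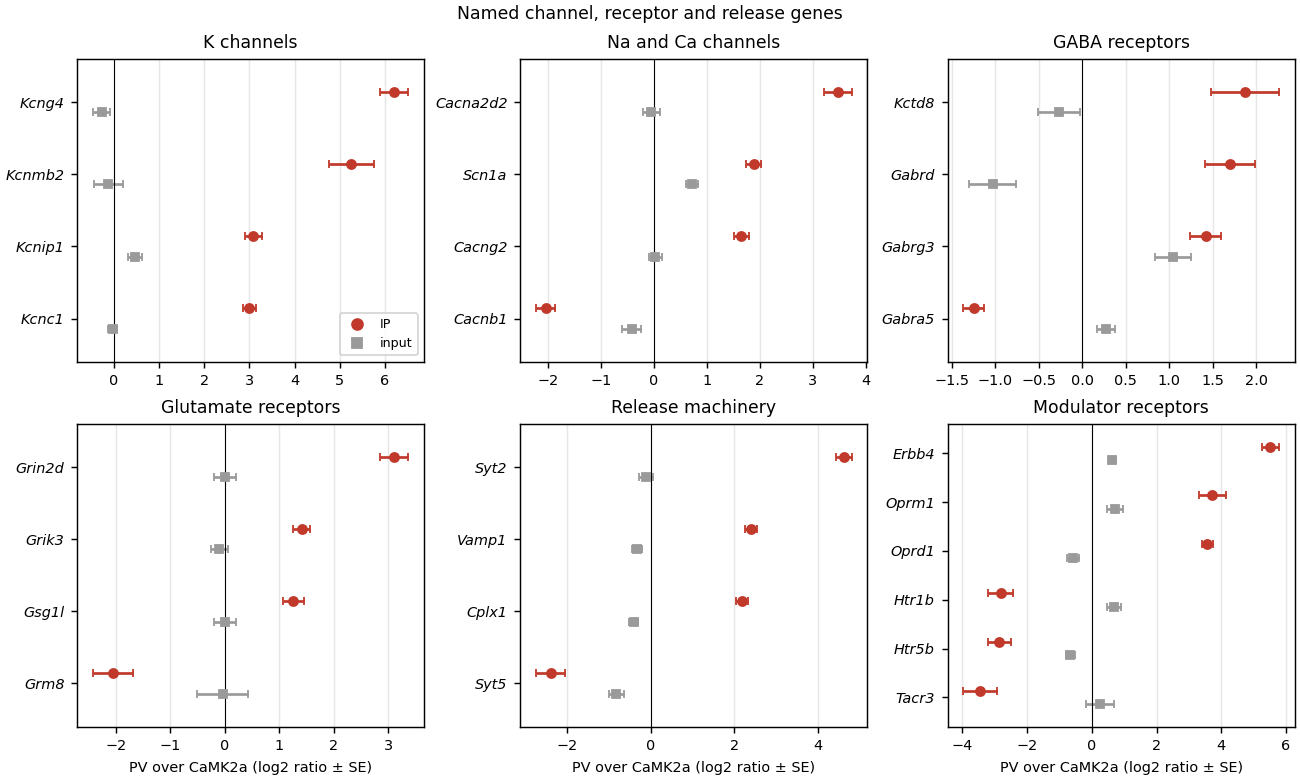
PV over CaMK2a log2 ratios with SE of the named channel, receptor and release genes, with IP as circles and input as squares (4 PV and 3 CaMK2a libraries each). IP ratios reach 6.20 for Kcng4 and -3.45 for Tacr3, while input ratios stay between -1.03 (Gabrd) and 1.04 (Gabrg3).

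Among GABA receptor genes, 5 of 17 were higher and 8 lower (median log2 ratio -0.30), beside 18% and 14.3% of all genes. Without CaMK2a IP replicate 3, 3 were higher. Gabrd, the delta subunit of extrasynaptic receptors, held 27.9, 25.7, 25.8 and 47.6 CPM in the PV IP, against 7.78, 11.0 and 10.5 CPM in the CaMK2a IP (1.70 ± 0.29), with an input ratio of -1.03 ± 0.27. Gabrb2, a beta subunit, was higher at 0.38. Gabra5, the extrasynaptic subunit of pyramidal dendrites, held 250 to 304 CPM in the PV IP and 644 to 692 CPM in the CaMK2a IP (-1.25 ± 0.12; input 0.27 ± 0.10), and Gabra2 and Gabra4 were lower at -0.88 and -0.60. Gabrg3 was higher in IP and input alike (1.42 ± 0.18 and 1.04 ± 0.21), and its difference did not pass (0.32 ± 0.28, adjusted p = 0.43, edgeR). At the inhibitory postsynapse, 2 of 11 genes were higher, near the 18% of all genes, and 5 lower, beside 14.3% of all genes. The scaffold gene Gphn (gephyrin) was lower at -0.54 ± 0.15, a call that ended without any single CaMK2a IP library. The count of 5 lower became 0 without CaMK2a IP replicate 1 or 3, 2 without CaMK2a IP replicate 2 and 3 without PV IP replicate 2.

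Glutamate receptor and auxiliary genes were more often lower than higher: 3 of 23 were higher and 11 lower (18% and 14.3% of all genes), with a median of -0.54, and 7 were lower without CaMK2a IP replicate 1. Grin2d, the NMDA receptor subunit of interneurons, was the large exception, at 43.3, 49.9, 48.2 and 30.1 CPM in the PV IP, against 4.54, 4.86 and 5.47 CPM in the CaMK2a IP. Its log2 ratio was 3.11 ± 0.26 in the IP and 0.01 ± 0.20 in the input, and its exons overlap an opposite-strand gene. The NMDA subunits Grin1 (-1.12) and Grin2a (-1.18) were lower, and Grin2b (-0.61) did not pass. Grik3, a kainate receptor subunit, was higher (1.41 ± 0.16), and so was Gsg1l, an AMPA receptor auxiliary protein (1.26 ± 0.19). Of metabotropic receptors, Grm8 held 1.87 to 5.55 CPM in the PV IP and 15 to 18 CPM in the CaMK2a IP (-2.05 ± 0.37). The AMPA receptor genes themselves were not analysed here. In the excitatory postsynaptic density, 6 of 23 genes were higher and 10 lower, beside 18% and 14.3% of all genes, with a median of -0.37. Iqsec1, an exchange factor for Arf6, held 733 to 869 CPM in the PV IP and 219 to 243 CPM in the CaMK2a IP (1.80 ± 0.13), and the scaffold Shank3 had 1.07, while Baiap2 (-1.50 ± 0.17) and Homer1 (-0.97) were lower. Psd3, another exchange factor for Arf6, held 1127, 870, 980 and 635 CPM in the PV IP, against 2351, 2333 and 2493 CPM in the CaMK2a IP. Its log2 ratio was -1.41 ± 0.17 in the IP and 0.64 ± 0.15 in the input, a difference of -2.10 ± 0.24 (adjusted p = 6.1e-06, edgeR).

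Of 39 release machinery genes, 9 were higher, near the 18% of all genes, 13 were lower, beside 14.3% of all genes, and 17 were not called, with a median of -0.23. Syt2, the fast calcium sensor of PV terminals, held 580, 749, 688 and 550 CPM in the PV IP, against 30.1, 21.8 and 26.1 CPM in the CaMK2a IP (log2 ratio 4.62 ± 0.19; input -0.11 ± 0.16). Syt1, the sensor of most forebrain synapses, had -0.23 and did not pass, and Syt5 was lower at -2.39 ± 0.35. Vamp1 held 429 to 567 CPM in the PV IP and 91.9 to 98.8 CPM in the CaMK2a IP (2.40 ± 0.14), whereas its relative Vamp2 had -0.77. Cplx1, a complexin of fast synapses, held 1647, 1963, 1808 and 2168 CPM in the PV IP, against 414, 382 and 456 CPM in the CaMK2a IP (2.18 ± 0.14; input -0.40 ± 0.11), whereas Cplx2 had -1.33. Sv2a (0.66) was higher and Sv2b (-1.33) lower. For Syt2, Vamp1 and Cplx1 the difference of IP and input ratios was 4.67 ± 0.24, 2.68 ± 0.18 and 2.53 ± 0.17 (largest adjusted p of the 3 = 1.3e-08, edgeR).

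Perineuronal net genes were higher or not called: 9 of 16 were higher and none lower, beside 18% and 14.3% of all genes. Their median was 1.37. Acan, the aggrecan core protein, held 6.75, 10.4, 14.1 and 6.16 CPM in the PV IP, against 0.324, 0.525 and 0.0976 CPM in the CaMK2a IP (4.89 ± 0.64, with 10 CaMK2a counts in all; input -0.40 ± 0.37). Hapln1, a link protein that ties hyaluronan to these proteoglycans, held 166, 158, 142 and 132 CPM in the PV IP, against 10.1, 18.4 and 10.4 CPM in the CaMK2a IP (3.55 ± 0.23). The proteases Adamts15 (4.18 ± 0.45) and Adamts4 (3.18 ± 0.46), which cut aggrecan, were higher as well. Vcan (2.83), Ptprz1 (1.5) and Bcan (0.86), which glia also make, were among the 9, and the glial marker lists moved the same way. Ncan (-0.05) did not pass.

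A small set of cytoskeletal transcripts took an outsize share of the PV IP. Sptan1, alpha-II spectrin, held 24170, 21950, 21420 and 9792 CPM in the PV IP, against 590, 966 and 411 CPM in the CaMK2a IP (log2 ratio 4.88 ± 0.38, adjusted p = 2.4e-06, edgeR). The inputs were close, with 554 to 660 CPM in the PV line and 512 to 524 CPM in the CaMK2a line. Map1a, a microtubule-associated protein, held 9624, 10840, 10580 and 17370 CPM in the PV IP, against 732, 1228 and 487 CPM in the CaMK2a IP (3.89 ± 0.33), and Sptbn1, beta-II spectrin, 7915, 11820, 12500 and 8326 CPM against 757, 1036 and 648 CPM (3.64 ± 0.23). Ank2, which anchors membrane proteins to spectrin, had 2.85 ± 0.21. PV replicate 4 was lowest for Sptan1 and highest for Map1a. Together Sptan1, Map1a, Sptbn1 and Ank2 took 4.35 to 4.76% of counts in the PV IP libraries and 0.21 to 0.40% in the CaMK2a IP libraries, but 0.34 to 0.38% and 0.27 to 0.29% in the PV and CaMK2a inputs. Map1a, Sptbn1 and Ank2 overlap opposite-strand genes.

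Of the whole list of 27 neurofilament and axon cytoskeleton genes, 11 were higher and 7 lower, beside 18% and 14.3% of all genes. Their median was -0.10, and the lower count was 2 without CaMK2a IP replicate 1 and 3 without CaMK2a IP replicate 3. Nefh (2.79), Ank3 (1.35) and Sptbn4 (1.10) were higher, and Gap43 (-1.61), Stmn1 (-1.0) and Map2 (-0.48) lower. Over all genes, the ratio moved with gene length. Over 5 equal bins of genes from shortest to longest by listed length, the median log2 ratio ran -0.04, -0.03, 0.06, 0.08 and 0.23 in the IP and -0.35, -0.14, -0.01, 0.11 and 0.30 in the input. In PV replicate 4 alone the bin of longest genes had -0.01 in the IP and 0.08 in the input. The part of length in the gene results was not tested.

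Nuclear genes of oxidative phosphorylation shifted little in the IP. Of 49 tested, 9 were higher and none lower, with a median log2 ratio of 0.18, and 9 of 49 is near the 18% of all genes that were higher. Apart from Cox6a2 the rises were small: Ndufb5, a complex I subunit, held 99.5 to 170 CPM in the PV IP and 69.2 to 80.4 CPM in the CaMK2a IP (0.88 ± 0.20), and Atp5g3, an ATP synthase subunit, 311 to 355 and 192 to 219 CPM (0.70 ± 0.12). The count higher was 4 without CaMK2a IP replicate 2 and 5 without CaMK2a IP replicate 3, and 3 genes were lower without PV IP replicate 4. The median input ratio of the 49 genes was -0.38. Their difference of IP and input ratios was positive for 13 and negative for none (median 0.49), beside 13.3% and 14.3% of all genes. Of 61 ribosomal protein genes, 12 were higher, near the 18% of all genes, and 1 lower, where 14.3% of all genes were. Their median was 0.32, with Rpl37 at 1.30 ± 0.31 and Rpl3 at -1.04 ± 0.25. The count higher was 5, 6 and 4 without CaMK2a IP replicate 1, 2 and 3, and 6 were lower without PV IP replicate 4. The median input ratio of ribosomal protein genes was -0.53. Their difference of IP and input ratios was positive for 16 of 64 tested and negative for 1 (median 0.70), beside 13.3% and 14.3% of all genes. Many ribosomal protein genes have near-identical pseudogenes, so their counts are uncertain.

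Activity-regulated genes were lower in the PV IP: 21 of 30 fell and none rose, beside 14.3% and 18% of all genes. Their median was -1.22, and 18 had a negative difference of IP and input ratios, beside 14.3% of all genes. Egr1, an early zinc finger factor, held 107, 71.4, 110 and 74.9 CPM in the PV IP, against 599, 497 and 573 CPM in the CaMK2a IP. For Egr1 the log2 ratio was -2.62 ± 0.18 in the IP and -0.37 ± 0.10 in the input. Nr4a1, a nuclear receptor of the same early response, held 12.2 to 30.9 CPM in the PV IP and 84.4 to 98.7 CPM in the CaMK2a IP (-2.21 ± 0.29). Junb (-2.90 ± 0.54) and Egr2 (-3.17 ± 0.67) had few reads in the PV IP, Junb with 5 to 30 and Egr2 with 3 to 8 counts a library. The secreted factors Bdnf (-1.87) and Nptx2 (-2.08) and the synaptic regulator Arc (-1.38) fell too. Fos (-0.93), Npas4 (-1.75), Jun (-0.24) and Rgs2 (0.59) were among those that did not pass. Without PV IP replicate 4, 2 members were higher.

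Of 47 receptors for modulators and peptides tested, 10 were higher, a share near the 18% of all genes, and 14 were lower, where 14.3% of all genes were. Their median log2 ratio was -0.36. Of the opioid receptors, the delta and mu receptors were higher. Oprd1, the delta receptor, held 144, 167, 173 and 138 CPM in the PV IP, against 14.8, 11.9 and 12.5 CPM in the CaMK2a IP (log2 ratio 3.57 ± 0.17; input -0.58 ± 0.20), and Oprm1, the mu receptor, held 47.1, 44.2, 28 and 21.1 CPM against 3.11, 1.31 and 3.32 CPM (3.73 ± 0.41), though an opposite-strand gene overlaps it. The muscarinic receptors divided, with Chrm2 at 2.91, higher, and Chrm1 at -1.35 and Chrm3 at -1.72, lower. Most serotonin receptors that passed were lower. Htr5b held 2.90 to 8.10 CPM in the PV IP and 30.6 to 39.4 CPM in the CaMK2a IP (-2.86 ± 0.35), Htr1b 1.6 to 5.07 and 19.9 to 30.1 CPM (-2.81 ± 0.39), and Htr6 had -3.42, with the channel Htr3a as the higher member (2.35). The input ratios of Htr5b and Htr1b were -0.67 ± 0.14 and 0.68 ± 0.21. Tacr3, the neurokinin B receptor, held 0.421 to 1.45 CPM in the PV IP and 8.40 to 9.56 CPM in the CaMK2a IP (-3.45 ± 0.52). Of 14 chloride and sodium-potassium transport genes, 4 were higher and 2 lower, the lower count being at the 14.3% of all genes. Slc4a3, an anion exchanger, had a log2 ratio of 1.28 ± 0.20 in the IP and -0.11 ± 0.22 in the input. The transport count lower was 1 without CaMK2a IP replicate 1 and 4 without PV IP replicate 4.

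Markers of glia, which neither Cre line is meant to tag, were also higher in the PV IP. Over all genes, 18% were higher and 14.3% lower. For astrocytes 13 of 14 markers were higher and none lower (median log2 ratio 1.66), and the summed level was 5175 to 6953 CPM in the PV IP and 1519 to 2295 CPM in the CaMK2a IP. Aldoc, an aldolase of astrocytes, held 288, 310, 346 and 365 CPM in the PV IP, against 75.4, 90.1 and 70.3 CPM in the CaMK2a IP (2.06 ± 0.15; input -0.58 ± 0.14). Gfap and Aqp4 were not analysed here. For the oligodendrocyte lineage all 13 markers tested were higher (median 2.11), with summed levels of 3900 to 5942 CPM in the PV IP and 793.8 to 1593 CPM in the CaMK2a IP. Mbp, myelin basic protein, held 1755, 1459, 1706 and 2783 CPM in the PV IP, against 355, 615 and 327 CPM in the CaMK2a IP (2.16 ± 0.27; input -0.11 ± 0.21). CaMK2a IP replicate 2 held the highest glial sums of its group. None of these lists had a marker at 0 in every IP library.

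Microglial and vascular markers were low but moved the same way, again beside 18% of all genes higher and 14.3% lower. For microglia 8 of 12 were higher and none lower (median 1.69), with sums of 123.9 to 209.8 CPM in the PV IP and 51.34 to 80.23 CPM in the CaMK2a IP. Cx3cr1, the fractalkine receptor, held 11.8, 16.2, 23.6 and 17.4 CPM in the PV IP, against 5.06, 8.67 and 2.15 CPM in the CaMK2a IP (1.72 ± 0.44; input 0.18 ± 0.13). For endothelial and mural cells 4 of 11 were higher and none lower (median 1.31), with sums of 53.34 to 82.41 CPM and 25.47 to 45.43 CPM in the PV and CaMK2a IP. That count was 0 without CaMK2a IP replicate 3 and 2 without CaMK2a IP replicate 1, PV IP replicate 1 or PV IP replicate 4. The tight-junction gene Cldn5, at 0.623 to 3.12 CPM in the PV IP and 0.324 to 1.05 CPM in the CaMK2a IP, did not pass (adjusted p = 0.24). In the inputs the median log2 ratios of the astrocyte, oligodendrocyte, microglia and vascular lists were -0.35, -0.11, -0.56 and -0.30. Gad1 and Pvalb had higher ratios than any glial marker tested, and the part of glial RNA in the other results was not tested.

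**Figure D5:**
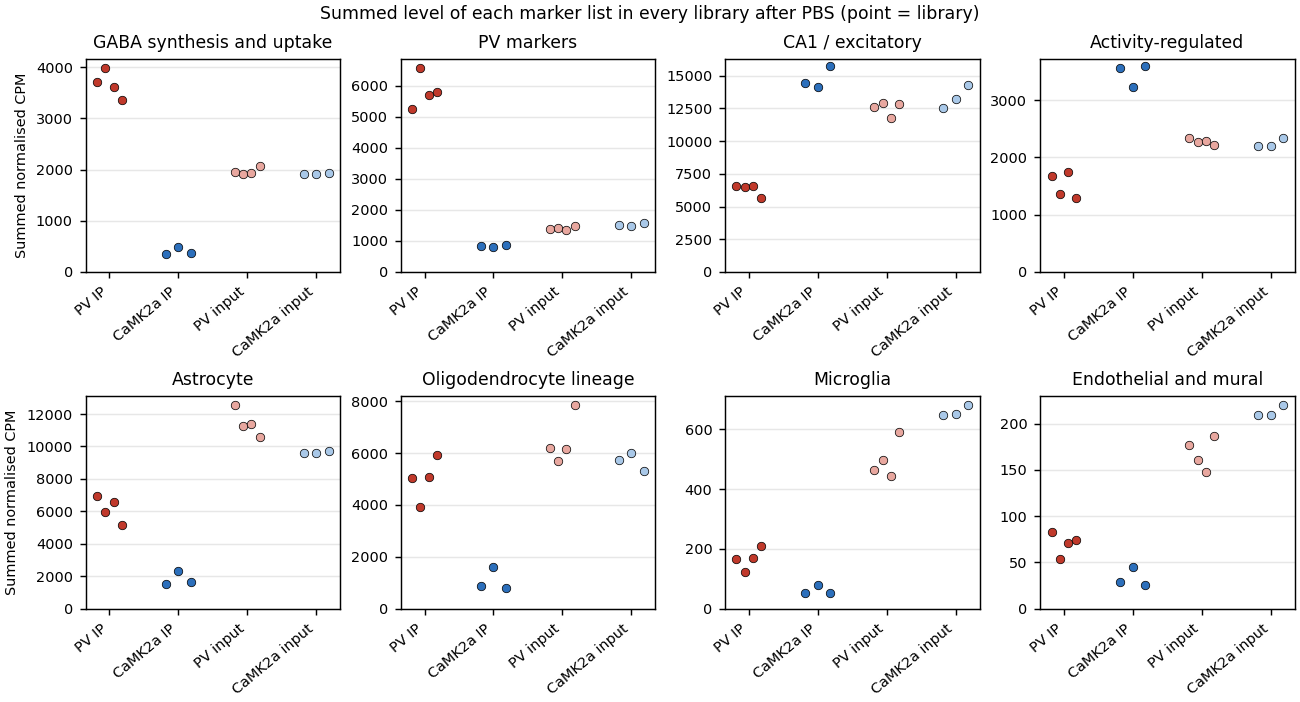
Summed normalised CPM of 8 marker lists in each PBS library, with IP and input scaled separately. GABA and PV marker sums are higher in every PV IP library than in any CaMK2a IP library, CA1 and activity-regulated sums lower, and the 4 glial and vascular sums higher.

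In the fit to all 7 input libraries, most genes called in the IP were not called in the input. Among 10913 genes tested in all comparisons, 1983 were higher in the PV IP, of which 348 (17.5%) were also higher and 78 (3.93%) lower in the PV input. Of 1580 genes lower in the PV IP, 231 (14.6%) were lower and 212 (13.4%) higher in the PV input. Over all of these genes, 11.9% were higher and 6.58% lower in the PV input, so the 13.4% is near the share of all genes. These shares carry the weakness of the input calls given above. Without PV input replicate 4, 3002 genes were higher and 2979 lower in the input, and the overlap with the IP was not counted in that fit. Among the genes named for large input ratios, Tuba1c, Akap9 and Enpp6, a phosphodiesterase of new oligodendrocytes, were higher in the IP too (Enpp6 2.47 ± 0.35 in the IP and 1.53 ± 0.18 in the input). Among those lower, the proteasome subunit Psmb5 had -1.52 ± 0.26 in the IP and -1.42 ± 0.30 in the input, a difference of -0.16 ± 0.43 (adjusted p = 0.83, edgeR). The X-linked nucleosome-binding gene Hmgn5 went in opposite directions, at 5.65 to 8.80 CPM in the PV IP and 25.6 to 29.5 CPM in the CaMK2a IP (-1.93 ± 0.25), and 4.79 to 12.3 CPM in the PV input and 3.47 to 3.99 CPM in the CaMK2a input (1.36 ± 0.35). Rspo3, an activator of Wnt signalling, and Ccdc112, a coiled-coil protein, also had opposite ratios. Rspo3 held 3.67, 10.6, 13.3 and 8.55 CPM in the PV IP, against 46.4, 48.7 and 49.0 CPM in the CaMK2a IP, and its difference of IP and input ratios was -3.09 ± 0.42 (adjusted p = 3.8e-05, edgeR). For Ccdc112 the log2 ratio was -2.06 ± 0.34 in the IP and 0.83 ± 0.21 in the input.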

How the data were processed

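Read counts per coding gene were taken from the deposited tables of the PV and CaMK2a lines and joined by gene, with 13083 genes in both IP tables, 13471 in both input tables and 12878 in all 4. The authors used BWA, edgeR and mm10 (GRCm38), per the submitters' processing notes, with versions not given in the sources used here. Per the labels, cDNA was amplified with the Ovation system and sequenced as 75 bp single ends. Strandedness is not given in the sources used here, so reads of an overlapping pair on both strands may be mixed. The deposited counts are whole reads per gene and library. The deposited RPKM values are the authors' own, and no level is compared between genes here.

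IP and input were each fitted with edgeR 4.0.16 in R 4.3.3 (quasi-likelihood test, TMM scaling, a filterByExpr minimum of 10 counts, prior count 0.125, Benjamini-Hochberg adjusted p under 0.05 over all genes tested). The difference of IP and input ratios was the interaction in a fit to the 14 PBS libraries. A ± after a log2 ratio is its SE, the size of the ratio divided by the square root of F. The fits were tested on simulated data, where the IP fit recovered 76% of 4-fold and 45.5% of 2-fold changes. The simulation gave both groups the same spread, so it cannot show how the test behaves at the unequal spread of these data. Alternatives used DESeq2 1.42.0, limma 3.58.1, other factors and filters, a replicate block and leaving out each library.

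Named genes were the 12 largest rises and 12 largest falls in the IP with a mean log2 CPM of at least 3 and no overlap, the 6 largest each way in the input and in the difference, set markers, and up to 4 members of each list. Other list members, given by log2 ratio alone, were chosen after their values were seen. The members and lists were chosen with earlier results of these data known. Promoters came from RefSeq, which held 102 of 138 named genes. Some genes that the rule or lists name are not reported here.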

Additional observations from a re-analysis of the deposited data

Results flagged for a closer look

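A library was taken to stand apart from the other 3 of its group where its gap to the nearest one, as a share of the range, exceeded Dixon's critical value. Chance marks about 1 in 20 groups, and 128 genes in IP and in input and 26 lists were examined. In the PV IP, replicate 4 stood apart for 10 genes and 6 lists, replicate 2 for 2 genes and replicate 3 for 1. In the PV input, replicate 4 stood apart for 21 genes and 6 lists, replicate 2 for 1 gene and replicate 3 for 2.

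In PV IP replicate 4, CPM was high for Cox6a2 (47.9), Psmb5 (50.3), Slc17a7 (478), C1qb (29.5), Gabrd (47.6) and Map1a (17400). It was low for Akap9 (336), Gad2 (448), Camk2a (3430) and Gabrg3 (85.5). Summed CPM of that library was low for 6 lists, at 1883 for interneuron transcription factors, 5655 for CA1 and excitatory markers, 423 for dentate markers, 4376 for GABA receptors, 3758 for glutamate receptors and 21090 for calcium signalling. PV IP replicate 2 was high for Rxfp3 (55.6 CPM) and Rcan2 (709 CPM), and replicate 3 for Ccdc112 (16.0 CPM).

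In PV input replicate 4, CPM was high for Cox6a2 (3.28), Tuba1c (58.6), Spsb4 (5.88), Chst8 (18.7), Cdpf1 (8.07), Psmb5 (62.3), Yif1b (19.1), Slc17a7 (1270) and Mbp (3030). It was also high for Npy (36.9), Nrgn (468), Tyrobp (16.6), Baiap2 (234), Rpl37 (41.4), Fxyd7 (27.7) and Slc4a3 (39.7). It was low for Gad2 (435), Dsp (28.5), Gabra5 (373), Dmd (66.8) and Ank2 (642). Summed CPM was low for interneuron transcription factors (1492), dentate markers (529.2), GABA receptors (3865), release machinery (21100) and axon cytoskeleton (16740), and high for ribosomal proteins (2939). PV input replicate 2 was high for Btbd11 (33.6 CPM), and replicate 3 was high for Nts (12.5 CPM) and low for Htr5b (16.1 CPM).

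For 78 genes the PV over CaMK2a ratio was higher in the IP and lower in the input. For 212 genes the reverse held (edgeR, adjusted p under 0.05 in both). All of them also passed in the difference, which opposite calls nearly fix in advance. The 78 were 3.93% of genes higher in the IP, where 6.58% of all genes were lower in the input. The 212 were 13.4% of genes lower in the IP, near the 11.9% of all genes higher in the input. Both counts rest on the input calls, which most single libraries can end.

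Genes listed in the PV IP table and not in the CaMK2a IP table entered no test. Of these, 4 had at least 10 counts in every PV PBS IP library: Cav3 (12, 21, 27 and 11 counts), Eif3j2 (55, 27, 42 and 50), Gimap6 (16, 63, 155 and 45) and Hsd17b14 (11, 16, 13 and 22).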

How the results depend on the processing

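No gene called in the IP, the input or the difference changed sign under the alternatives run. The balance of the difference did turn, with 48.2% of its calls positive, and 51.5% with relative log expression factors and 54.6% with upper-quartile factors. The median IP ratio of all genes, 0.06, was -0.024 with voom and -0.021 with the replicate block. In the IP, leaving out single libraries gave 1219 to 2347 genes higher and 921 to 2058 lower. In the input it gave 1 to 3002 higher and 0 to 2979 lower. DESeq2 called 1950 input genes higher and 1098 lower, limma voom called 1371 lower, and the fit to all 14 PBS libraries 323 lower. Of input calls 64.1% were higher, and 69.6% with relative log expression factors, 55.7% with upper-quartile factors, 55% with voom and 77.9% in the 14-library fit. For the difference, leaving out single libraries gave 1172 to 1927 genes positive and 1277 to 2011 negative, and PV replicates 1 to 3 alone, chosen after seeing the data, gave 2228 and 2132. Of 135 named genes tested in the IP, 117 kept their direction and side of the threshold under all 15 alternatives.

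Same-numbered libraries of the lines had correlations of deviations from the group means of -0.146 to 0.054. Between same-numbered IP and input libraries the correlation was 0.416 for PV replicate 4 and 0.022 to 0.108 for the others. The labels do not say what a number shares. A replicate block over replicates 1 to 3 gave 2116 genes higher and 2026 lower in the IP, and 2898 higher and 2910 lower in the input, where 49.9% of calls were higher. With the number as a block within each line, the difference was positive for 1920 genes and negative for 2300, and it passed for Slc17a7 (-0.77 ± 0.10, adjusted p = 3e-05, edgeR) and Akap9 (1.37 ± 0.25, adjusted p = 0.00045, edgeR).

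Depth limits the ratios of genes with few counts in the CaMK2a IP.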
